A study of Mus musculus with 8 samples.

Results

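The D cyclins, their kinases CDK4 and CDK6, the CDK inhibitors and the retinoblastoma gene decide whether a cell leaves G1, and their transcripts were followed here in mouse bone marrow progenitors cultured on a Notch ligand. The members were fixed by name as Ccnd1, Ccnd2, Ccnd3, Cdk4, Cdk6, Cdkn1a, Cdkn1b, Cdkn2c, Cdkn2d and Rb1, and by having an array probeset that is listed with exactly 1 gene. This gave 10 probesets of 9 genes, out of 21789 such probesets of 19938 genes. Cdkn1b had 2 probesets and the other 8 genes had 1 each. The probeset of Cdkn1a is listed with a second gene as well, so Cdkn1a was not analysed here.

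The 8 arrays came from 3 groups. They were wildtype T lineage cells gated as Thy1+CD25+ (2 arrays, which the labels call biological replicates), Tcf1-deficient lineage-negative cells from 3 mice and wildtype lineage-negative cells from 3 mice, both gated as Mac1-Gr1-Thy1-CD25-. All were sorted after 4 days on OP9-DL4, a bone marrow stromal line that carries the Notch ligand DL4. All 3 groups were grown from lymphoid primed multipotent progenitors of bone marrow with Flt3L at 5 ng/ml and IL1, as the labels write it, at 1 ng/ml. Tcf1 is a transcription factor of early T cell development, and the deficient mice carry its inactivation in every cell, on a background described as mixed after about 6 generations of backcrossing. The labels give the wildtype mice the same origin and background. The labels give no age, and they do not say whether the T lineage cells came from the same mice as the wildtype lineage-negative cells. Per the labels, deficient progenitors gave no T lineage cells, so T lineage cells are of wildtype only.

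D cyclins bind CDK4 or CDK6, and the active pair phosphorylates the retinoblastoma protein, which otherwise holds the E2F factors of S phase genes in check. Proteins of the INK4 family, which include the products of Cdkn2c and Cdkn2d, bind CDK4 and CDK6 and keep the D cyclins off. The product of Cdkn1b, p27, binds complete cyclin and kinase complexes and blocks CDK2 above all. In mice, cyclin D3 and CDK6 are known for their part in the expansion of immature thymocytes, and p27 and the Cdkn2c product for holding haematopoietic progenitors and lymphocytes back from division.

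Promoter windows of the 300 bases from 250 before to 50 after an annotated start were taken from the RefSeq table (build GRCm38.p6), which held 10 windows for 7 of the 10 members. Ccnd1, Ccnd2 and Rb1 are not in it. The 4 windows below are shown because these kinases and inhibitors lie on opposite sides of the same step and include the members that moved most between T lineage and lineage-negative cells among those with windows. Cdk4 itself moved less between these cells than Cdkn2d and Ccnd3, whose windows are not printed. Capitals mark matches, on either strand, to the E-box CACGTG, the TCF/LEF motif (CTTTGAT or CTTTGAA) and the TATA motif TATAAA, and everything else is in lower case.
Cdk4 (chr10:127063285-127063584, plus strand): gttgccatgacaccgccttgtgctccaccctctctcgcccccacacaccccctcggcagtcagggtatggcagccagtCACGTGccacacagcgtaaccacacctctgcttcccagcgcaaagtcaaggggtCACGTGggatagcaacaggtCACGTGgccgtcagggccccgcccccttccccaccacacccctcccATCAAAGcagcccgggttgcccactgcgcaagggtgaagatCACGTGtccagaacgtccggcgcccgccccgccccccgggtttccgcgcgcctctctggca
Cdk6 (chr5:3343643-3343942, plus strand): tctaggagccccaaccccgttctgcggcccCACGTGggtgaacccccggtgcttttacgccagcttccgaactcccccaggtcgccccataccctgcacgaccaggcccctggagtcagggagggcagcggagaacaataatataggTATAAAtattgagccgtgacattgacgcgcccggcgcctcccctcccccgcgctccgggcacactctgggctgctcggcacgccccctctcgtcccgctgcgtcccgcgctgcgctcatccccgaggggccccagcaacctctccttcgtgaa
Cdkn1b (chr6:134920151-134920450, plus strand): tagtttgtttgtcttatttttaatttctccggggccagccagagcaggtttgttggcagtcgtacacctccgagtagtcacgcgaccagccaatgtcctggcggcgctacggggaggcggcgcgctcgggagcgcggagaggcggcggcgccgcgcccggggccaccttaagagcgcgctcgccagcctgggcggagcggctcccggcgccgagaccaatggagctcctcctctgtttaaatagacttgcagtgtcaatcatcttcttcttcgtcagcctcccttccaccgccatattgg
Cdkn2c (chr4:109665323-109665622, minus strand): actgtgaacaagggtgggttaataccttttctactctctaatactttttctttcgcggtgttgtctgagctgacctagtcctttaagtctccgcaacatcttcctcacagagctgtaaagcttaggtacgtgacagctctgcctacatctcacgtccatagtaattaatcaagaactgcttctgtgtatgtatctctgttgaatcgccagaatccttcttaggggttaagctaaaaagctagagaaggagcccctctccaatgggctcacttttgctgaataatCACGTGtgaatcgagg

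The Cdk4 window held 4 copies of CACGTG, whose first bases lie at -172, -118, -98 and -11 relative to the start. Of the 32851 windows of this length in the table, 7.15% held at least 1 copy and 0.0244% (8 windows) held at least 4. The Cdk4 window held the most matches of the 10 member windows, and these shares take no account of that. The same window held the letters ATCAAAG, the TCF/LEF motif on the opposite strand, at -52, a motif that 8.65% of all windows hold. The Cdk6 window held 1 CACGTG at -220 and 1 TATAAA at -103 (13.6% of all windows hold TATAAA). The Cdkn2c window shown held 1 CACGTG, at position 35 after the start. Cdkn2c has a second window (chr4:109666707-109667006, minus strand), which is not printed and held no match to any motif searched. The Cdkn1b window held none of the motifs searched, which were those above, the RBPJ motif GTGGGAA (6.38% of all windows), the FOXO motif GTAAACA (3.65%) and the E2F motifs TTTCCCGC, TTTGGCGC, TTTCGCGC and TTTGCCGC (2.26% for any of them). The only FOXO match among the 10 windows was in 1 of the 2 Ccnd3 windows. No match overlapped another in the windows printed, and a match is a run of letters, not evidence of binding.

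Before the genes are described, the groups were checked by their markers. All 8 of 8 T lineage markers (Cd3g, Cd3d, Cd3e, Thy1, Il2ra, Gata3, Lat, Rag1) rose in T lineage cells against the wildtype lineage-negative gate, among them Cd3g at 11.52 and 10.21 in the T lineage arrays. Thy1 and Il2ra, which encodes CD25, define the sort gates, so their rise follows from the sort and is no check. The granulocyte and monocyte list below likewise holds the gate markers Itgam (Mac1) and Ly6g (Gr1), against which the lineage-negative cells were sorted. All 7 dendritic cell markers were lower (Flt3 is also on the progenitor list), and their mean log2 value lay between 5.99 and 6.20 in T lineage arrays, between 10.08 and 10.34 in deficient and between 10.31 and 10.56 in wildtype lineage-negative arrays. Of 9 granulocyte and monocyte markers 7 were lower and 0 higher, with means of 6.52 to 6.75 in T lineage, 8.97 to 9.01 in deficient and 8.92 to 9.62 in wildtype lineage-negative arrays. The 6 markers of the OP9 stroma reached means of at most 7.10 in T lineage, 7.33 in deficient and 7.07 in wildtype lineage-negative arrays. Of these 6, 0 passed in T lineage against wildtype cells and 1 was lower against deficient cells, Sparc, a matrix protein, at -0.54 (SE 0.09, limma adjusted p = 0.0021). Between the genotypes Sparc was 0.54 (adjusted p = 0.0997) and Pdgfrb 0.39 (0.688), neither called, with all deficient arrays above the wildtype ones. Of 4 NK cell markers 1 fell and 1 rose in T lineage against wildtype cells, Klrd1 at -5.71 (adjusted p = 2.4e-09) and Nkg7 at 1.06 (7.6e-05). Of 3 progenitor markers Flt3 (-4.00) and Cd34 (-1.23) fell and Kit rose by 0.58 (adjusted p = 0.00546). Of 3 B lineage and 3 erythroid markers 0 passed. The T lineage, dendritic, granulocyte and monocyte, NK and progenitor markers named here thus moved with the differences below between T lineage and lineage-negative cells, and Sparc with those from deficient cells. Their part in those differences was not tested. In sorted bulk samples, fewer cells of a type and less RNA per cell cannot be told apart.

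In T lineage cells Ccnd1, Cdkn1b, Cdkn2c, Cdkn2d and Rb1 fell and Cdk6 rose, against wildtype lineage-negative cells, while Ccnd2, Ccnd3 and Cdk4 did not pass the test. Of the 10 probesets 6 were called lower and 1 higher (limma, adjusted p under 0.05 over all probesets), where 10.4% of all probesets were called lower and 7.66% higher, 18% in all. Ccnd1 had the widest change, a 2.99-fold fall. The median log2 difference of the 10 probesets was -0.44, against 0.04 over all probesets, and the median size was 0.55 against 0.13. In all 10 the T lineage arrays lay outside the range of the wildtype lineage-negative arrays, above it in 4 and below it in 6, where 47.8% of all probesets had arrays that did not overlap (28% above and 19.8% below). An unadjusted p under 0.05 was reached by 9 of 10, against 29.4% of all probesets. Levels below are the deposited log2 values of single arrays, and differences are on the same scale.

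**Figure D1:**
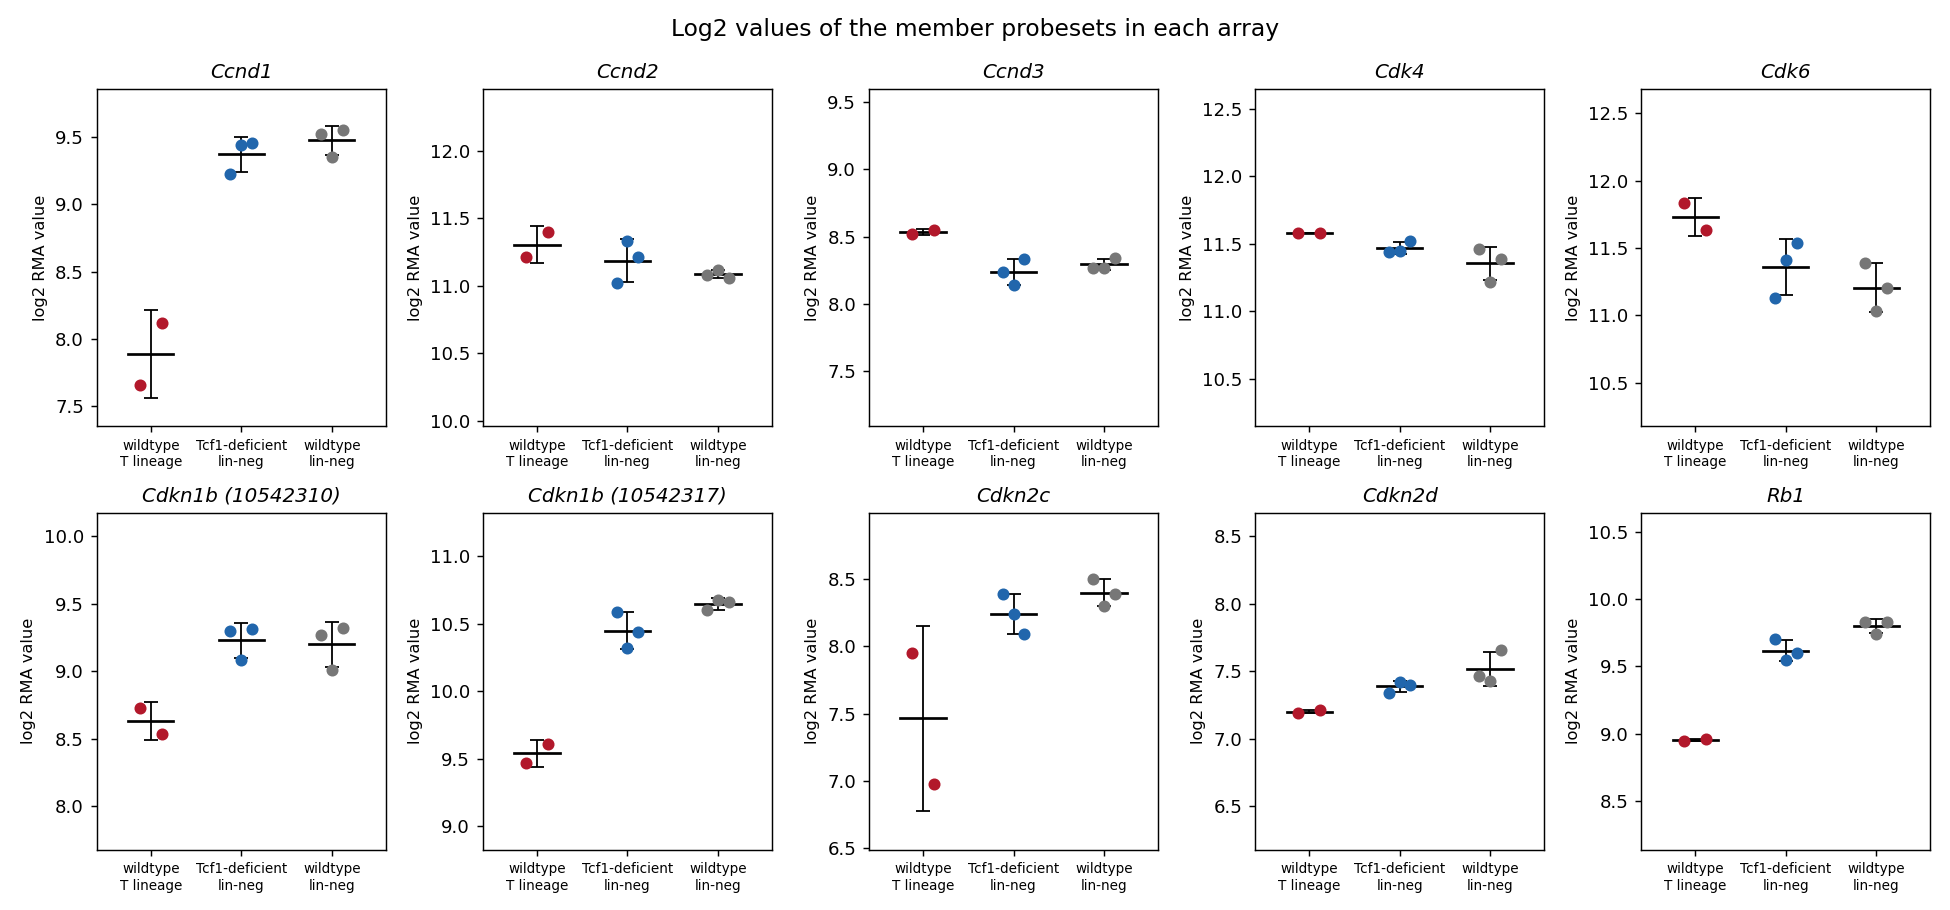
Log2 RMA value (y axis) of each of the 10 probesets in the 2 wildtype T lineage, 3 Tcf1-deficient lineage-negative and 3 wildtype lineage-negative arrays (x axis, 1 point an array, with the group mean as a line and the SD as a bar). Every panel spans the same height, so the drop of Ccnd1, Cdkn1b, Cdkn2c and Rb1 in T lineage arrays can be set against the narrow spread of Cdk4 and Ccnd3, and the 2 T lineage arrays stand 0.97 apart for Cdkn2c.

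Among the D cyclins, Ccnd1 (chromosome 7, 144929931 to 144939831 in GRCm38.p6), the cyclin that growth factor signals raise in many cell types, stood at 7.66 and 8.12 in T lineage arrays, at 9.22, 9.44 and 9.45 in deficient and at 9.52, 9.35 and 9.55 in wildtype lineage-negative arrays. Both T lineage arrays lay more than 1 unit below every lineage-negative array, and the lineage-negative genotypes overlapped. The difference from wildtype lineage-negative cells was -1.58 (SE 0.13, 95% interval -1.87 to -1.29, limma adjusted p = 1.48e-05), which only 1.07% of all probesets reached or went below. The difference from deficient cells was -1.48 (SE 0.13, adjusted p = 3.03e-05).

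Ccnd2 (chromosome 6, 127125162 to 127152188), the D cyclin linked to Myc and cytokine signals in lymphocytes, stood at 11.21 and 11.40 in T lineage arrays, at 11.02, 11.33 and 11.21 in deficient and at 11.08, 11.12 and 11.06 in wildtype lineage-negative arrays. The T lineage arrays were above the wildtype ones and overlapped with the deficient ones. Its difference from wildtype cells was 0.22 (SE 0.10, 95% interval 0.00 to 0.44, limma adjusted p = 0.174) and from deficient cells 0.12 (SE 0.10, adjusted p = 0.524). The interval leaves room for a rise of up to 0.44 but for no fall of the size of Ccnd1.

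Ccnd3 (chromosome 17, 47505051 to 47599689), the D cyclin of thymocyte expansion in mice, stood at 8.52 and 8.55 in T lineage arrays, at 8.24, 8.14 and 8.33 in deficient and at 8.27, 8.27 and 8.34 in wildtype lineage-negative arrays. All lineage-negative arrays were below both T lineage arrays. The difference passed against deficient cells (0.30, SE 0.08, limma adjusted p = 0.0306) and missed the threshold against wildtype cells (0.24, SE 0.08, 95% interval 0.07 to 0.42, adjusted p = 0.0594). These differences share the T lineage arrays, and what sets them apart is the genotype difference of -0.05 (SE 0.07, adjusted p = 0.999). The call against deficient cells was lost when the first (0.30, adjusted p = 0.0679) or second (0.25, 0.0667) deficient array or the first (0.31, 0.106) or second (0.28, 0.144) T lineage array was left out. It was also lost with the 2 groups fitted alone (0.0741), arrays centred on their medians (0.29, 0.0591), all probesets tested (0.0621) or array weights (0.26, 0.0545). Against wildtype cells a call was gained without deficient array 2 (0.24, 0.0447), with a second quantile normalization (0.33, 0.00817) or without the dimmest 40% of probesets (0.0351). The 95% intervals against wildtype cells of Ccnd1, -1.87 to -1.29, and Ccnd3, 0.07 to 0.42, do not touch.

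Of the kinases, Cdk6 (chromosome 5, 3341004 to 3531008) stood at 11.83 and 11.63 in T lineage arrays, at 11.13, 11.41 and 11.54 in deficient and at 11.39, 11.03 and 11.20 in wildtype lineage-negative arrays. Both T lineage arrays were above all lineage-negative arrays, and the deficient and wildtype arrays overlapped. Cdk6 rose 1.44-fold against wildtype cells (0.53, SE 0.14, limma adjusted p = 0.0208) and differed by 0.37 (SE 0.14, adjusted p = 0.106) from deficient cells, which did not pass. The call was lost when the second wildtype lineage-negative array was left out (0.44, adjusted p = 0.0719), the third one (0.53, 0.0568) or the first T lineage array (0.43, 0.157), and with all probesets tested (0.0687).

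Cdk4 (chromosome 10, 127063535 to 127067288) stood at 11.58 in both T lineage arrays, at 11.44, 11.45 and 11.52 in deficient and at 11.46, 11.22 and 11.39 in wildtype lineage-negative arrays. The T lineage arrays were just above the others. The difference of 0.22 from wildtype cells (SE 0.08, 95% interval 0.04 to 0.41, limma adjusted p = 0.102) and that of 0.11 from deficient cells (SE 0.08, adjusted p = 0.447) did not pass. With an intensity trend and a robust prior the first had an adjusted p of 0.0263.

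Among the inhibitors, both probesets of Cdkn1b (chromosome 6, 134920401 to 134925525) fell in T lineage cells. Probeset 10542317 stood at 9.47 and 9.61 in T lineage arrays, at 10.59, 10.32 and 10.44 in deficient and at 10.60, 10.68 and 10.66 in wildtype lineage-negative arrays. The T lineage arrays lay well below the others, and the deficient arrays lay just below the wildtype ones with no overlap. Its fall was 2.16-fold against wildtype cells (-1.11, SE 0.09, limma adjusted p = 1.34e-05) and 1.88-fold against deficient cells (-0.91, SE 0.09, adjusted p = 6.8e-05). Probeset 10542310 stood at 8.73 and 8.53 in T lineage arrays, at 9.30, 9.08 and 9.31 in deficient and at 9.27, 9.01 and 9.32 in wildtype lineage-negative arrays. It moved the same way by less, by -0.57 (SE 0.12, adjusted p = 0.0055) against wildtype and -0.60 (SE 0.12, adjusted p = 0.00512) against deficient cells. Here the lineage-negative genotypes overlapped fully, and the genotype intervals of both probesets, -0.20 to 0.26 here and -0.38 to -0.01 for 10542317, overlap. Without T lineage array 2 the calls of probeset 10542310 were lost, at -0.47 against wildtype (adjusted p = 0.0583) and -0.50 against deficient cells (0.0535).

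Cdkn2c (chromosome 4, 109660876 to 109666756), the INK4 inhibitor p18, stood at 7.95 and 6.98 in T lineage arrays, at 8.39, 8.24 and 8.09 in deficient and at 8.50, 8.30 and 8.39 in wildtype lineage-negative arrays. Both T lineage arrays were below every lineage-negative array but stood 0.97 apart, a gap that 0.275% of all probesets reached, against a median gap of 0.11. T lineage array 1, the higher of them for Cdkn2c, also had the higher T lineage marker mean, 10.41 against 9.64 in array 2, and the higher Rag1, 10.22 against 8.86. Il2ra was nearly equal in these arrays, at 12.24 and 12.22. Array 2 had the higher dendritic (6.20 against 5.99), granulocyte and monocyte (6.75 against 6.52) and progenitor (8.97 against 8.58) means. Its NK mean was lower (6.40 against 6.48). By all these marker means but the NK one, array 2 lay nearer the lineage-negative arrays, while its Cdkn2c lay farther from them. Ccnd1 differed the other way from Cdkn2c between these arrays, by 0.46, a gap reached by 2.93% of probesets. The source of these gaps was not tested. Against wildtype cells Cdkn2c fell by 0.93 (SE 0.22, limma adjusted p = 0.0126), and this was -0.45 without T lineage array 2 (adjusted p = 0.0526), -1.42 without T lineage array 1, and not called with all probesets tested (0.0555). Against deficient cells it differed by -0.78 (SE 0.22, adjusted p = 0.0371), and by -0.29 without T lineage array 2 (0.223) and -1.27 without array 1. That call was lost as well without deficient array 1 (-0.70, 0.114) or 2 (-0.78, 0.0784), without wildtype lineage-negative array 1 (-0.78, 0.0535), 2 (-0.78, 0.0527) or 3 (-0.78, 0.0543), with the 2 groups fitted alone (0.0799), a second quantile normalization (-0.74, 0.0532), all probesets (0.121) or the trend and robust prior (0.0524). The direction was the same each time, and the size rests on which T lineage array is used.

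Cdkn2d (chromosome 9, 21288459 to 21291421), the INK4 inhibitor p19, stood at 7.19 and 7.21 in T lineage arrays, at 7.34, 7.42 and 7.40 in deficient and at 7.46, 7.43 and 7.66 in wildtype lineage-negative arrays. The groups did not overlap and stood in that order from low to high. The T lineage arrays fell against wildtype cells by 0.32 (SE 0.09, limma adjusted p = 0.0257) and differed by -0.19 (SE 0.09, adjusted p = 0.193) from deficient cells. The call was lost when the first T lineage array (-0.30, adjusted p = 0.125), the second (-0.33, 0.0928) or the third wildtype array (-0.25, 0.085) was left out, with all probesets tested (0.0558) and with a replicate block (-0.28, 0.0704).

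Rb1 (chromosome 14, 73192858 to 73325951), which encodes the retinoblastoma protein that D cyclin kinases act on, stood at 8.95 and 8.96 in T lineage arrays, at 9.70, 9.55 and 9.60 in deficient and at 9.83, 9.74 and 9.83 in wildtype lineage-negative arrays. The T lineage arrays were nearly equal and far below the rest, and the deficient arrays lay just below the wildtype ones. Its fall was 1.79-fold against wildtype cells (-0.84, SE 0.08, limma adjusted p = 2.99e-05) and 1.58-fold against deficient cells (-0.66, SE 0.08, adjusted p = 0.000216). Over all alternatives the first difference lay between -0.87 and -0.79 and the second between -0.69 and -0.61, and both were called in each of them.

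**Figure D2:**
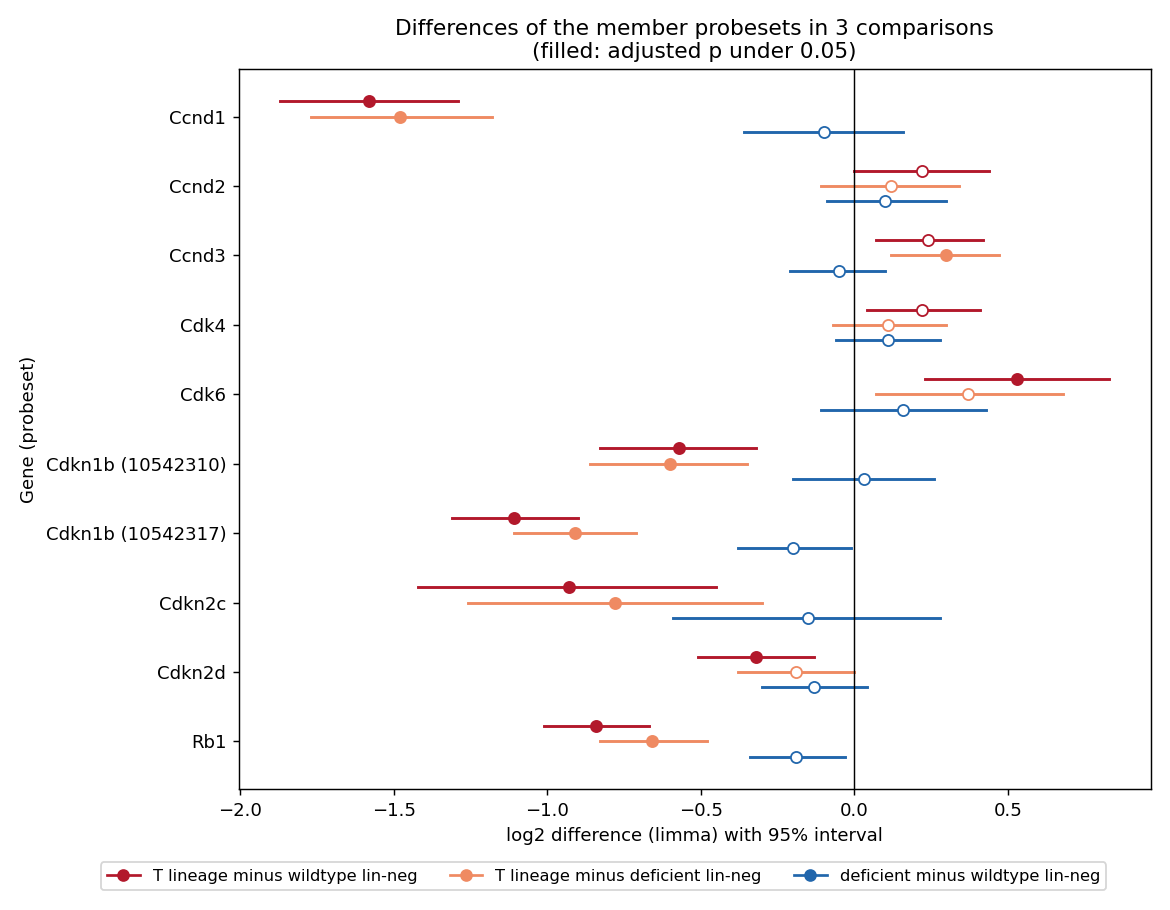
Log2 differences (x axis) of the 10 probesets (y axis) with their 95% intervals, for T lineage minus wildtype lineage-negative, T lineage minus deficient lineage-negative and deficient minus wildtype lineage-negative cells, where filled points had an adjusted p under 0.05. Ccnd1, both Cdkn1b probesets, Cdkn2c and Rb1 are filled left of 0 in both T lineage comparisons, and no point of the genotype comparison is filled.

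Against deficient lineage-negative cells 5 probesets were called lower and 1 higher of 10 (8.16% and 5.98% of all probesets, 14.1% in all), and 7 had an unadjusted p under 0.05 (26.2% of all). The T lineage arrays lay above the deficient ones in 3, below in 6 and overlapped in 1, where 40.7% of all probesets did not overlap (23.6% above and 17.1% below), with a median difference of -0.40 against 0.04 over all probesets. This comparison shares its T lineage arrays with the one above, so the likeness of their values is in part built in.

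Between the genotypes none of the 9 genes passed the test. Of the 10 probesets 0 passed in limma, where 0.00459% of all probesets (1 probeset, of Il2ra, which encodes the CD25 of the sort gate) did, and 2 had an unadjusted p under 0.05, where 4.92% of all did. The smallest adjusted p was 0.941. The differences of deficient from wildtype lineage-negative cells ran from -0.20 for Cdkn1b probeset 10542317 to 0.16 for Cdk6, and their 95% intervals reached no further than -0.59 (Cdkn2c) and 0.43 (Cdk6). The 2 probesets with the small unadjusted p were Rb1 (-0.19, SE 0.07, adjusted p = 0.941) and Cdkn1b 10542317 (-0.20, SE 0.08, adjusted p = 0.979). These and Cdkn2d (-0.13, SE 0.08, adjusted p = 0.999) were the 3 of 10 whose deficient arrays all lay below the wildtype arrays, where 6.01% of all probesets did so, and 0 of 10 lay above (3.93% of all, 9.95% in both directions). The Ccnd1 difference was -0.10 (95% interval -0.36 to 0.16), so a change of the size seen in T lineage cells lies outside the interval. For Ccnd2 it was 0.10 (-0.09 to 0.30) and for Cdk4 0.11 (-0.06 to 0.28).

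**Figure D3:**
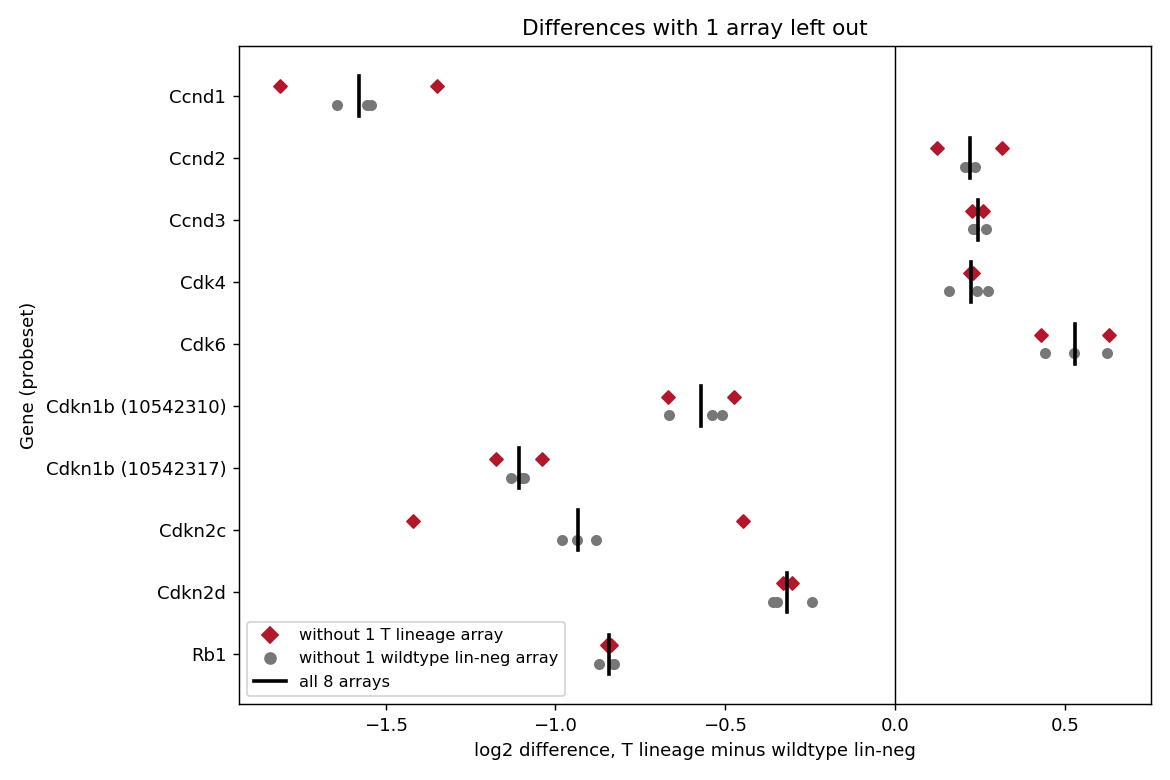
Log2 difference of T lineage minus wildtype lineage-negative cells (x axis) for each probeset (y axis) with all 8 arrays (black line), without 1 T lineage array (diamonds) and without 1 wildtype lineage-negative array (circles). The diamonds of Cdkn2c stand at -1.42 and -0.45, while those of Rb1 stand on the line.

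The genes around this step were described from lists, in which a gene with several probesets counts by the one of smallest p. Counted the same way, 18.7% of all 19938 genes were called in T lineage against wildtype cells (7.95% higher and 10.7% lower, median difference 0.05), 14.7% against deficient cells (6.19% higher and 8.47% lower, median 0.05) and 0.00502% between the genotypes (median -0.01). Of 12 genes of the Rb family and the E2F and DP factors, 2 rose, 2 fell and 8 did not pass in T lineage against wildtype lineage-negative cells (median 0.09 against 0.05 over all genes, and 7.95% of all higher and 10.7% lower). Tfdp1, a DP partner of E2F factors, rose by 0.52 (SE 0.09, limma adjusted p = 0.00179), with 10.45 ± 0.07 (SD, n = 2) in T lineage and 9.93 ± 0.10 (SD, n = 3) in wildtype cells at probeset 10582981. Its other probeset, 10570373, did not pass against wildtype (0.21, adjusted p = 0.0742) or deficient cells (0.13, 0.299). E2f4, an E2F factor that mostly represses, rose by 0.41 (adjusted p = 0.0126). E2f7, an atypical repressor of E2F targets, fell by 0.56 (adjusted p = 0.000988), and Tfdp2 fell by 0.31 (0.0155). The same 4 genes passed in the same directions against deficient cells, with Tfdp1 at 0.33, E2f4 at 0.36, E2f7 at -0.50 and Tfdp2 at -0.28. Between the genotypes 0 of 12 passed, and Tfdp1 had the smallest p (0.19, adjusted p = 0.979).

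Of 14 other G1 cyclins, kinases and inhibitors, which include cyclin E, CDK2 and the other INK4 genes, 0 passed in any of the 3 comparisons. Over all genes 18.7% passed in T lineage minus wildtype, 14.7% in T lineage minus deficient and 0.00502% in deficient minus wildtype cells. The medians of the list were 0.12, 0.10 and -0.01 in that order. The group means of Cdkn2a, Cdkn2b and Cdkn1c lay between 6.39 and 6.72, below the array medians of 6.85 to 6.91. Signal over background was not assessed, so their lack of a call does not show that they stay unchanged. Cdc25a, a phosphatase that activates CDK2, had the smallest p against wildtype cells (0.22, limma adjusted p = 0.134). Against deficient cells it was Ccnh, a subunit of the CDK-activating kinase (0.26, adjusted p = 0.0511).

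Of 19 measured S phase genes, typical E2F targets, 4 rose, 0 fell and 15 did not pass in T lineage against wildtype cells (median 0.22 against 0.05), and 16 of 19 had a positive difference. Over all genes 7.95% were called higher, 10.7% lower and 18.7% in either direction. The share of S phase genes called in either direction is near that of all genes, but all 4 calls were upward. Whether 4 of 19 exceeds the 7.95% of all genes called higher was not tested. Gins2, a subunit of the replicative helicase, rose by 0.67 (SE 0.09, limma adjusted p = 0.000291), Tyms, which makes thymidylate, by 0.29 (0.0239), and Mcm3, another helicase subunit, by 0.35 (0.0324). The mean of the list was 10.23 and 10.28 in the T lineage arrays, 10.03 to 10.16 in the deficient and 9.99 to 10.11 in the wildtype lineage-negative arrays. Against deficient cells 1 rose (Gins2, 0.56, with 6.19% of all genes higher), and between the genotypes 0 passed. Of 17 mitotic genes 5 fell, 0 rose and 12 did not pass against wildtype cells (median -0.04 against 0.05, and 10.7% of all genes lower), with Cenpf, a kinetochore protein, at -0.50 (adjusted p = 0.00136), Nusap1, a spindle protein, at -0.40 (0.00684) and Mki67, which encodes Ki-67, at -0.30 (0.0185). Against deficient cells 2 were called lower (8.47% of all genes), Cenpf (-0.35) and Top2a, a topoisomerase (-0.63, adjusted p = 0.0481). The Top2a call rests on probeset 10390746, with 6.78 ± 0.08 (SD, n = 2) in T lineage and 7.41 ± 0.40 (SD, n = 3) in deficient cells. By the same probeset Top2a is 1 of the 5 that fell against wildtype cells (-0.68, limma adjusted p = 0.028). The other Top2a probeset, 10390707, stood at 12.02 in T lineage and 12.15 in deficient cells and was not called (-0.13, adjusted p = 0.366), nor against wildtype cells (-0.18, 0.162). Between the genotypes 0 passed.

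**Figure D4:**
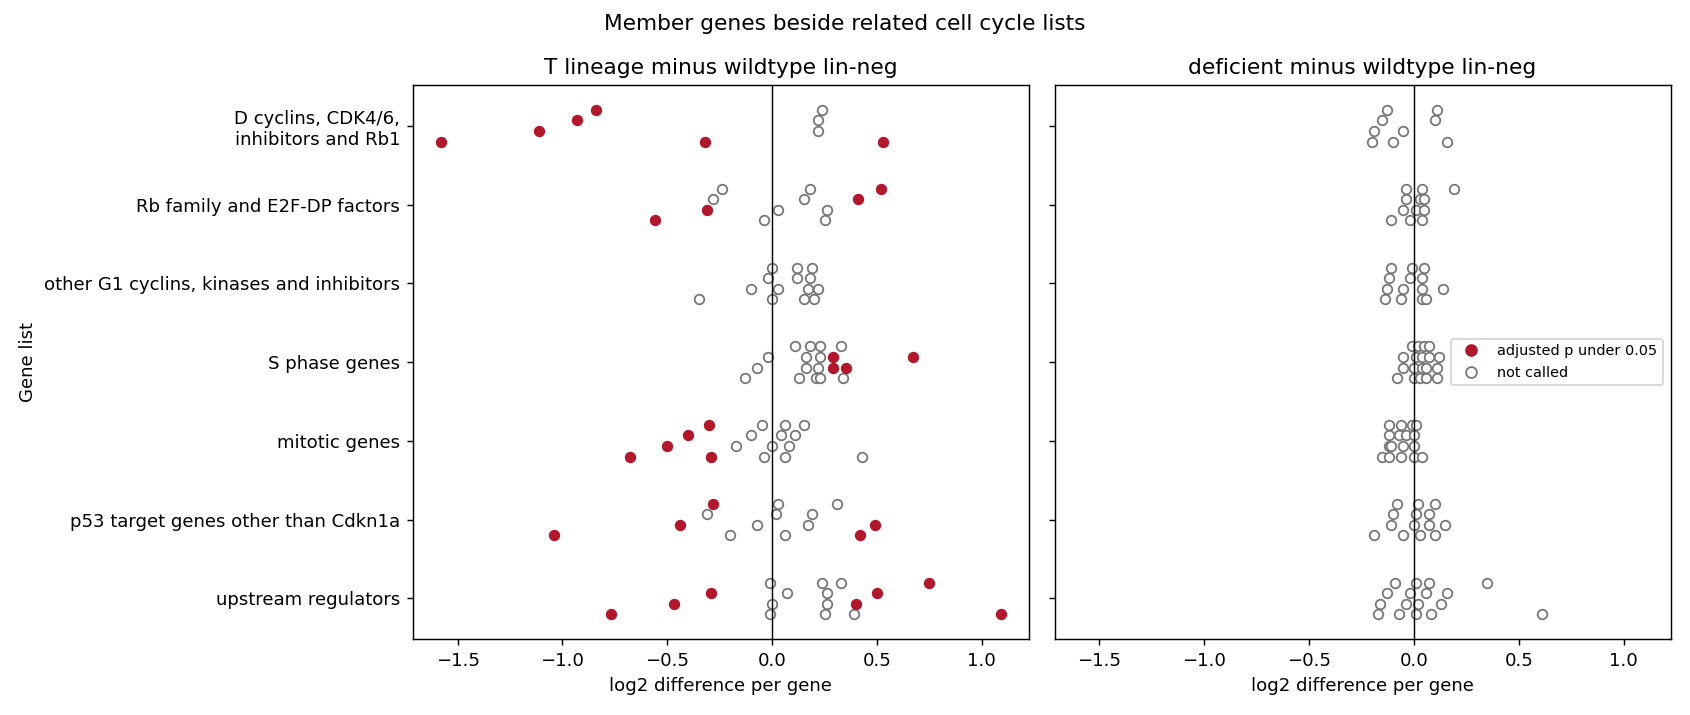
Log2 difference per gene (x axis, 1 point a gene, by its probeset of smallest p) for the member genes and the 6 related lists (y axis), in T lineage minus wildtype lineage-negative cells (left) and deficient minus wildtype lineage-negative cells (right), with adjusted p under 0.05 in red. On the left Ccnd1 is the leftmost point of all at -1.58. The 14 other G1 genes hold no red point there, where 18.7% of all genes were called. On the right no point is red, where 0.00502% of all genes were called.

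Cdkn1a, the textbook p53 target, was not analysed here, and 14 other p53 targets were. In T lineage against wildtype cells 2 rose and 3 fell (median 0.02 against 0.05, and 7.95% of all genes higher and 10.7% lower). Btg2, an antiproliferative gene, fell by 1.04 (SE 0.13, limma adjusted p = 0.00024), Pmaip1 and Ccng1 fell by 0.44 and 0.28, and Tnfrsf10b and Sesn2 rose by 0.49 and 0.42. Against deficient cells 3 fell and 0 rose (8.47% and 6.19% of all genes), with Btg2 at -0.85, Pmaip1 at -0.51 and Trp53inp1 at -0.34. Between the genotypes 0 of 14 passed.

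Of 17 measured factors and receptors known to act on D cyclin or inhibitor genes, 4 rose, 3 fell and 10 did not pass in T lineage against wildtype cells (median 0.25 against 0.05, and 7.95% of all genes higher and 10.7% lower). Mycn, a Myc family factor, rose by 1.09 (SE 0.16, limma adjusted p = 0.00072), Hes1, a repressor induced by Notch, by 0.75 (0.00145) and Stat5a, a cytokine signal transducer, by 0.50 (0.00259). Cebpa, a myeloid factor that restrains division, fell by 0.77 (adjusted p = 0.000538), Foxo1, which activates Cdkn1b in several cell types, by 0.47 (0.0157) and Klf4 by 0.29 (0.0452). Against deficient cells 4 rose and 1 fell (6.19% and 8.47% of all genes), including Mycn (1.03), Stat5a (0.57), Gfi1 (0.38) and Cebpa (-0.78). Between the genotypes 0 of 17 passed, and Hes1 had the smallest p (0.61, adjusted p = 0.198).

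The genes whose pattern over the 8 arrays was nearest to the 3 members with the widest range of group means were found by the root mean square distance between values centred on each gene's own mean. Nearest to Ccnd1 was Pik3ap1, an adaptor of PI3 kinase signalling, at a distance of 0.06 log2 units, with group means of 7.72 in T lineage, 9.18 in deficient and 9.30 in wildtype lineage-negative cells. Myo1f (0.07) and Pip4k2a (0.09) followed. Nearest to Cdkn1b probeset 10542317 were Malt1 (0.05), Slc38a9 (0.06) and B4galt4 (0.06), and nearest to Cdkn2c were Galnt3 (0.10), Slc9a9 (0.11) and Gkap1 (0.13). The distances describe these 8 arrays and carry no test.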

How the data were processed

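Expression was measured on 8 mouse arrays, 1 per sorted sample, from 10 ng of total RNA each. The values the authors deposited are log2 intensities per probeset, made with RMA (background correction, normalization across arrays and summary of the probes of a set) in Partek 6.5, per the submitters' processing notes. The log2 scale was read from the values, whose array medians lay between 6.85 and 6.91. Scan dates, array build and detection calls were not used here, so neither batch nor background was checked. Precision is limited by having 8 arrays.

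Of 35399 probesets 11989 without a gene and 1621 with several genes were left out. The other 21789 were fitted in limma 3.58.1 (R 4.3.3, lmFit and eBayes) with all 8 arrays as 3 groups, 1 shared spread and 5 residual degrees of freedom. Tests were two-sided, adjusted by Benjamini-Hochberg over all 21789 probesets, and called at an adjusted p under 0.05. The fit was also run on simulated data with independent noise and far fewer changed probesets than were called in T lineage cells. That run therefore does not vouch for the calls here. A list gene with several probesets counts by its probeset of smallest p. Named genes were all members, and per list and comparison the 3 called genes of smallest p in each direction, or the gene of smallest p where none was called. Members and lists were chosen with earlier results of these data known. Arrays of a group correlated at r of 0.995 to 0.997 across probesets, and lineage-negative with T lineage arrays at 0.973 to 0.983. All 9 genes matched the RefSeq annotation by gene identifier. The targeted transcript was not analysed here and gave no check of genotype. The labels call the T lineage arrays biological replicates but do not name their mice.

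Alternatives were each array left out, only the compared groups fitted, a second quantile normalization, median centring, no dim probesets, all probesets, array weights, a trend and robust prior, a replicate block and gene averages.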

Additional observations from a re-analysis of the deposited data

How the results depend on the processing

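Under 16 alternatives the 30 member differences gave 480 values. No called difference changed its direction, 445 values stayed on the same side of the threshold, 31 lost a call and 4 gained one, and 21 of the 30 differences had no change of call. The exceptions are Ccnd3, Cdk4, Cdk6, Cdkn2c, Cdkn2d and Cdkn1b probeset 10542310, with values in the report. The sign of 1 uncalled difference changed in 3 settings (Cdkn1b probeset 10542310 between the genotypes, -0.06 to 0.11). With 1 array left out the member probesets called numbered 4 to 8 for T lineage minus wildtype lineage-negative cells, 3 to 6 for T lineage minus deficient and 0 each time for deficient minus wildtype cells, against 7, 6 and 0 with all arrays. The lowest counts, 4 and 3, were those without T lineage array 2. With all probesets tested, 4 member probesets (3 genes) were called against wildtype cells. Over all probesets the genotype comparison had 1 call, 0 to 12 with 1 array left out (12 without wildtype lineage-negative array 1, 4 without deficient array 1, 2 without either T lineage array and 0 without the third array of either genotype), 2 with the 2 groups fitted alone, 0 with a second quantile normalization, median centring or all probesets, 6 with array weights, 11 with a trend and robust prior and 3 with gene averages. With the replicate number as a block, 6 member probesets (5 genes) were called in T lineage minus wildtype, 6 (5 genes) in T lineage minus deficient and 0 in deficient minus wildtype cells, and over all probesets 3467, 2680 and 0. The numbers did not pair the lineage-negative samples, since deviations of same-numbered arrays of the genotypes correlated at r of -0.13, 0.02 and 0.04. Same-numbered T lineage and wildtype lineage-negative arrays correlated at 0.16 and 0.12, and T lineage and deficient arrays at -0.14 and -0.25. The deviations of the 2 T lineage arrays from their mean are equal and opposite, so swapping these arrays only reverses the sign of each value. With 2 such pairs each, which are thus not independent, whether the T lineage numbers pair is not settled. Signal over background was not assessed.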
